A study of Saccharomyces cerevisiae with 41 samples.

Results

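Untreated rRNA was compared at 2 maturation states of the yeast small ribosomal subunit, 18S rRNA and its precursor 20S pre-rRNA, by the rate at which reverse transcriptase dropped off at each nucleotide. The comparison used 11 untreated samples, of 41 samples in all, which the authors had averaged into 4 columns. The 4 columns make up 2 pairs with no sample in common. In the DMSO pair, 18S rRNA of 80S ribosomes (2 samples, strain fun12-TAP) was set against 20S pre-rRNA of Tsr1 particles (2 samples, strain tsr1-HTP), both treated with DMSO as the solvent. In the 1M7 control pair, the late controls of 18S rRNA (3 samples, of which 2 were from fun12-TAP and 1 from nob1-TAP) were set against the mid-early controls of 20S pre-rRNA (4 samples, 1 each from enp1-HTP, ltv1-HTP, tsr1-HTP and rio2-HTP). Their labels read control and name no solvent, and the nob1-TAP control is labelled 18S although the 1M7-treated Nob1 samples are labelled 20S. All strains are derivatives of Saccharomyces cerevisiae BY4741 grown in rich medium at 30 °C, and each particle was pulled out through a tagged protein, so 18S and 20S RNA also differ in the tagged protein. The untreated control of the DMS set (18S rRNA of fun12-TAP, 3 samples) is an additional 18S column, for which the same set holds no 20S partner.

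The drop-off rate is a fraction between 0 and 1. Nucleotide 1 is listed at 1 in each column, so nucleotides 2 to 1800 were compared. Each column is the authors' average and carries no error of its own, and the depth behind it is unknown, so no test was made. A stop was called different in a pair when its rates differed by at least 0.03 and by at least 2-fold after 0.01 had been added to both. Among the 4 columns the mean rate was 0.0283 to 0.0287, close to the minimum difference.

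When reverse transcriptase meets a base it cannot pair with, it ends its copy on the nucleotide just 3′ of that base, so a modified nucleotide can show as a stop at its 3′ neighbour. In the loop of helix 31, in the head of the subunit near the P site, U1191 is converted to a pseudouridine, methylated by Emg1 and, late in the cytoplasm, given an aminocarboxypropyl group by Tsr3. That last group sits on the pairing face of the base. Dim1 dimethylates a pair of neighbouring adenines near the 3′ end, A1781 and A1782, and Kre33 acetylates a pair of cytidines, C1280 and C1773. 20S pre-rRNA carries a 3′ extension that Nob1 cuts away to leave the 18S 3′ end.

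The sequence of helix 31 and its surroundings is shown because it holds every stop that was higher in 18S rRNA in both pairs. Capitals mark those stops.
Nucleotides 1171 to 1210: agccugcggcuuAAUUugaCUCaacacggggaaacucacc
The last nucleotides of the molecule are shown because most stops that were lower in 18S rRNA lie there. Capitals mark stops called lower in 1 pair or both.
Nucleotides 1737 to 1800: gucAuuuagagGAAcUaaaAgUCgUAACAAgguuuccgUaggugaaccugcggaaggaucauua
Both were read from the deposited table, with its T written as U.

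Only 7 stops were higher in 18S rRNA in both pairs, and all 7 lay between nucleotides 1183 and 1192 of helix 31. They make up 0.389% of the 1799 nucleotides. In the DMSO pair 28 stops were called higher (1.56%) and in the 1M7 control pair 10 (0.556%). At these limits no stop outside the stretch U1181 to G1200 was called higher in both pairs, while other settings added C1156, A579 or a few others. Stops called lower in both pairs numbered 2 (0.111%), at A1740 and U1752, both toward the 3′ end. For comparison, 20 stops were called lower in the DMSO pair (1.11%) and 6 in the 1M7 control pair (0.334%). No stop was called in opposite directions. Scaling moved the split in single pairs, with 38 higher and 16 lower in the DMSO pair when columns had a common median, and 17 higher and 5 lower in the 1M7 control pair with local scaling. With crossed pairs the split turned, to 11 higher and 15 lower for 80S DMSO against the mid-early controls, and 24 higher and 41 lower for the late controls against Tsr1 DMSO. Against the mid-early controls, the control of the DMS set gave 17 higher and 23 lower. That control is listed at 0 for 36 of the last 50 nucleotides. Zeros such as the one at A1782, against 0.977 in the mid-early controls, count as lower, and their part in the 23 was not counted. A further 39 stops were called in the DMSO pair only and 7 in the 1M7 control pair only.

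**Figure D1:**
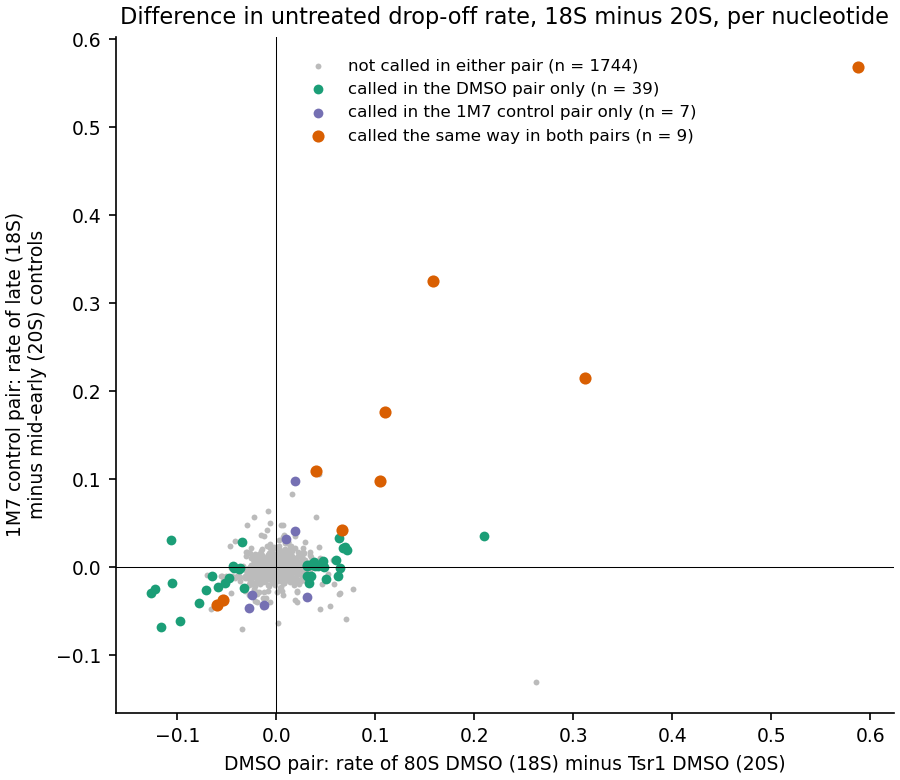
Difference in untreated drop-off rate, 18S minus 20S, at each of 1799 nucleotides, with the DMSO pair on the x axis and the 1M7 control pair on the y axis. The 9 stops called the same way in both pairs are 7 toward the upper right and 2 just below and left of zero, the 39 stops of the DMSO pair only stretch along the x axis, and the lone grey point at the lower right is A1781.

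C1192, the nucleotide 3′ of the hypermodified U1191, had the largest difference of both pairs. Its rate was 0.712 in 80S DMSO, against 0.125 in Tsr1 DMSO, a difference of 0.588. The late controls gave 0.787, against 0.219 in the mid-early controls, a difference of 0.568. The additional 18S column, the control of the DMS set, gave 0.833. The 3 untreated 18S columns thus lay above both 20S columns, and the 2 columns of 20S differed from each other by 0.095.

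U1191 itself had 0.365 in 80S DMSO, against 0.0533 in Tsr1 DMSO, and 0.317 in the late controls, against 0.102 in the mid-early controls. C1190, on its 5′ side, had 0.0841 in 80S DMSO, against 0.0179 in Tsr1 DMSO, and 0.0620 in the late controls, against 0.0202 in the mid-early controls. The control of the DMS set lay with 18S at both, with 0.398 at U1191 and 0.0756 at C1190.

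A second group of stops lay at A1183 to U1186, upstream of U1187, which is pseudouridine in mature rRNA. A1184 was the strongest of the group. Its rate was 0.179 in 80S DMSO, against 0.0211 in Tsr1 DMSO, and 0.365 in the late controls, against 0.0391 in the mid-early controls. After 0.01 had been added, these are folds of 6.08 and 7.63, the largest of the 7 stops in both pairs, C1192 included. The 18S columns themselves differed at A1184, where 80S DMSO was lower than the late controls by 0.185 and lower than the control of the DMS set (0.413).

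U1185 had 0.126 in 80S DMSO, against 0.0154 in Tsr1 DMSO, and 0.206 in the late controls, against 0.0297 in the mid-early controls. U1186 had 0.128 in 80S DMSO, against 0.0231 in Tsr1 DMSO, and 0.135 in the late controls, against 0.0378 in the mid-early controls. A1183 had 0.0592 in 80S DMSO, against 0.0188 in Tsr1 DMSO, and 0.138 in the late controls, against 0.0285 in the mid-early controls. At each of the 7 stops the control of the DMS set exceeded both 20S columns. Tsr1 DMSO was the lowest of the 5 untreated columns at all 7, which the choice of stops favours.

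**Figure D2:**
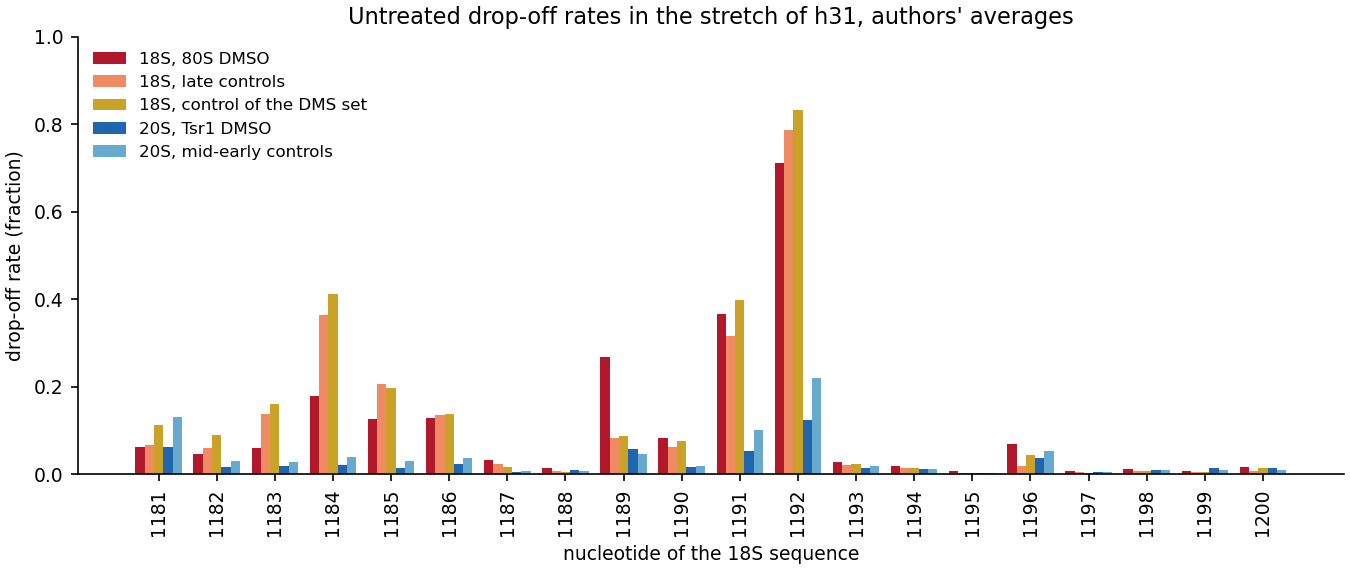
Untreated drop-off rate (fraction) from U1181 to G1200 in 5 columns, the 18S columns to the left of the 20S columns, each bar 1 average with no error available. At nucleotide 1192 the 18S bars stand at 0.712, 0.787 and 0.833 and the 20S bars at 0.125 and 0.219, and at 1189 a single 18S bar, 80S DMSO, stands out at 0.267.

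Within the stretch, 2 further stops were called in 1 pair only. A1189 was higher in the DMSO pair only, with 0.267 in 80S DMSO, against 0.0571 in Tsr1 DMSO. Its rate was 0.0826 in the late controls, against 0.0472 in the mid-early controls, the same direction but 1.62-fold. The control of the DMS set gave 0.0875 there, so 80S DMSO alone was high and differed from the late controls, of the same rRNA, by 0.185.

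A1196 was lower in the 1M7 control pair only, with 0.0180 in the late controls, against 0.0525 in the mid-early controls. In the DMSO pair it went the other way, with 0.0686 in 80S DMSO, against 0.0375 in Tsr1 DMSO, and was not called. Pseudouridine U1187 had 0.0327 in 80S DMSO, against 0.0054 in Tsr1 DMSO, and 0.0241 in the late controls, against 0.0071 in the mid-early controls. U1187 and U1182 (differences of 0.029 in the DMSO pair and 0.028 in the 1M7 control pair) missed the minimum difference of 0.03 in both pairs. At U1181, another pseudouridine, 80S DMSO had 0.0636, against 0.0616 in Tsr1 DMSO, and the late controls had 0.0675, against 0.131 in the mid-early controls. The control of the DMS set had 0.112, so 18S and 20S columns overlapped. From A1193 to C1195 and from C1197 to G1200 no rate of the 4 columns passed 0.0272.

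The stops of the untreated pairs were also read in the treated columns, which are other samples but also hold stops at adducts. The acylating reagents 1M7 and NAI mark flexible riboses. Each treated column is again 1 average, of 2 or 3 samples, except that of Rio1 with NAI, which holds 1 sample. With 1M7, 6 of the 7 stops were called higher in 80S (18S) than in Tsr1 (20S), against 0.611% of all nucleotides called higher and 1.28% called lower between these columns. With NAI, 6 of the 7 were called higher in 80S than in Tsr1, against 1.67% of all nucleotides called higher and 3.5% called lower. The exception with 1M7 was C1190 (0.0381 in 80S, against 0.0338 in Tsr1), and with NAI it was A1183 (0.0346 in 80S, against 0.0095 in Tsr1).

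Nob1, Rio1 and 80S-like particles carry 20S pre-rRNA by their labels. At all 7 stops their 1M7 columns lay above the 4 mid-early columns of Enp1, Ltv1, Rio2 and Tsr1, although at A1183 the 2 groups nearly met. How they compared with mature 80S varied among the 7 stops. At A1184 the rate was 0.411 in 80S, 0.162 to 0.189 in the 3 late 20S columns and 0.0208 to 0.0650 in the 4 mid-early columns. A1183 gave 0.149 in 80S, 0.0446 to 0.0536 in the late 20S columns and 0.0124 to 0.0443 in the mid-early columns. U1185 had the same order, with 0.196, 0.0872 to 0.148, and 0.0152 to 0.0438. Mature 80S thus lay above every late 20S column at these 3 stops.

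At U1186 it lay among them, with 0.122 in 80S and 0.0820 to 0.153 in the late 20S columns, against 0.0188 to 0.0410 in the mid-early columns. C1192 gave 0.730 in 80S and 0.681 to 0.792 in the late 20S columns, against 0.0450 to 0.176 in the mid-early columns. U1191 gave 0.270 in 80S and 0.187 to 0.345 in the late 20S columns, against 0.0468 to 0.108 in the mid-early columns. At C1190 80S (0.0381) lay below the late 20S columns (0.0577 to 0.100) and among the mid-early ones (0.0251 to 0.0419). Rio1 was probed with both reagents. Its rate at C1192 was 0.681 with 1M7 and 0.767 with NAI, and at A1184 it was 0.162 with 1M7 and 0.0674 with NAI.

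**Figure D3:**
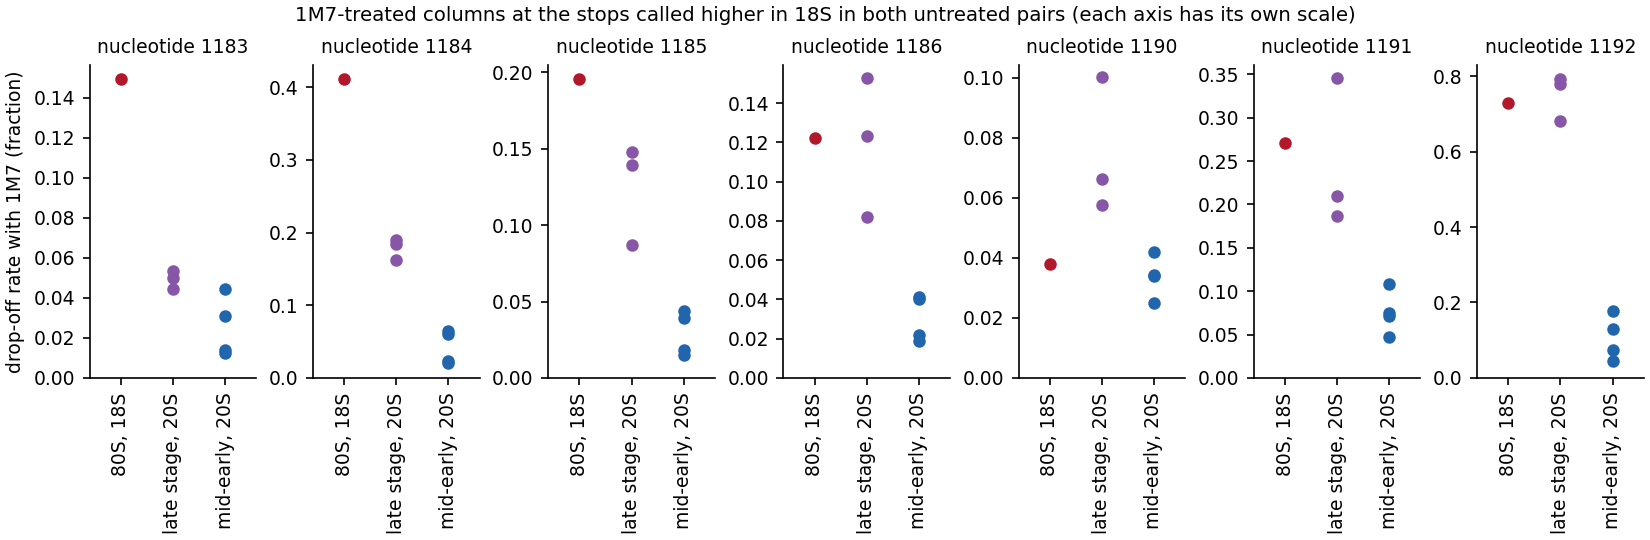
Drop-off rate with 1M7 (fraction, each axis with its own scale) at the 7 stops called higher in 18S in both untreated pairs, 1 point per averaged column, for 80S (18S), the 3 late 20S columns and the 4 mid-early 20S columns. At 1183 to 1185 the 80S point stands above the late 20S points, at U1186 and U1191 it lies among them, and so it does at 1192, between 0.681 and 0.792.

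Outside helix 31, both stops that were lower in 18S in both pairs lie near the 3′ end. A1740 had 0.0051 in 80S DMSO, against 0.0650 in Tsr1 DMSO, and 0.0278 in the late controls, against 0.0709 in the mid-early controls. U1752 had 0.0049 in 80S DMSO, against 0.0585 in Tsr1 DMSO, and 0.0106 in the late controls, against 0.0476 in the mid-early controls. The additional 18S column did not go with these. It gave 0.106 at A1740 and 0.117 at U1752, above both 20S columns at each, so the 18S and 20S columns overlapped at these stops. With 1M7, A1740 was lower in 80S (0.0068) than in each of the 7 columns of 20S RNA (0.0263 to 0.0972), and so was U1752 (0.0066, against 0.0120 to 0.0498). With NAI, A1740 was also lower in 80S (0.0024, against 0.133 in Tsr1), while U1752 is listed at 0 in both 80S and Tsr1.

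These stops stood in a longer run of low rates. From A1740 to A1766 all 27 nucleotides were lower in 18S in both pairs, the longest such run of the molecule, ahead of 19 nucleotides from 1260 to 1278. Over the run the mean rate was 0.0044 in 80S DMSO, against 0.0487 in Tsr1 DMSO, and 0.0192 in the late controls, against 0.0384 in the mid-early controls. The control of the DMS set had a mean of 0.0281. At 20 of the 27 nucleotides all 3 untreated 18S columns lay below both 20S columns, against 21.0% of nucleotides over the molecule. The choice of the run from the columns of the pairs favours this count, and listed zeros in 18S columns count as below. The mean was also low in treated 80S, at 0.0092 with 1M7 and 0.0047 with NAI, against 0.0339 to 0.0537 in the 20S columns with 1M7 and 0.0379 and 0.0412 with NAI. With DMS it was higher in 80S, at 0.0196, and no 20S column was treated with DMS.

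Stops called lower in the DMSO pair only were concentrated here, with 15 of 18 in the 3′ minor domain (nucleotides 1632 to 1800), which holds 169 of the 1799 nucleotides. The largest was U1761, with 0.0025 in 80S DMSO, against 0.129 in Tsr1 DMSO. U1758 is listed at 0 in 80S DMSO, against 0.123 in Tsr1 DMSO, and A1749 is listed at 0, against 0.105. A1765 had 0.0457 in 80S DMSO, against 0.162 in Tsr1 DMSO, and A1762 had 0.0046, against 0.101.

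At these 5 stops the 1M7 control pair had the same sign with smaller differences. Of the 15, A1721 and A1689 had the other sign there, with 0.028 at A1721 (0.0342 in the late controls, against 0.0060 in the mid-early controls) and 0.0012 at A1689. At U1761 the late controls gave 0.0373, against 0.0670 in the mid-early controls, and at A1765 they gave 0.0979, against 0.166. At 14 of the 18 stops 80S DMSO was the lowest of the 5 untreated columns, and at 14 Tsr1 DMSO was the highest, which the choice of stops favours. Random priming needs RNA on the 3′ side, and 18S rRNA ends at nucleotide 1800 while 20S pre-rRNA goes on. The part of this and of the listed zeros in the low 18S rates was not tested.

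**Figure D4:**
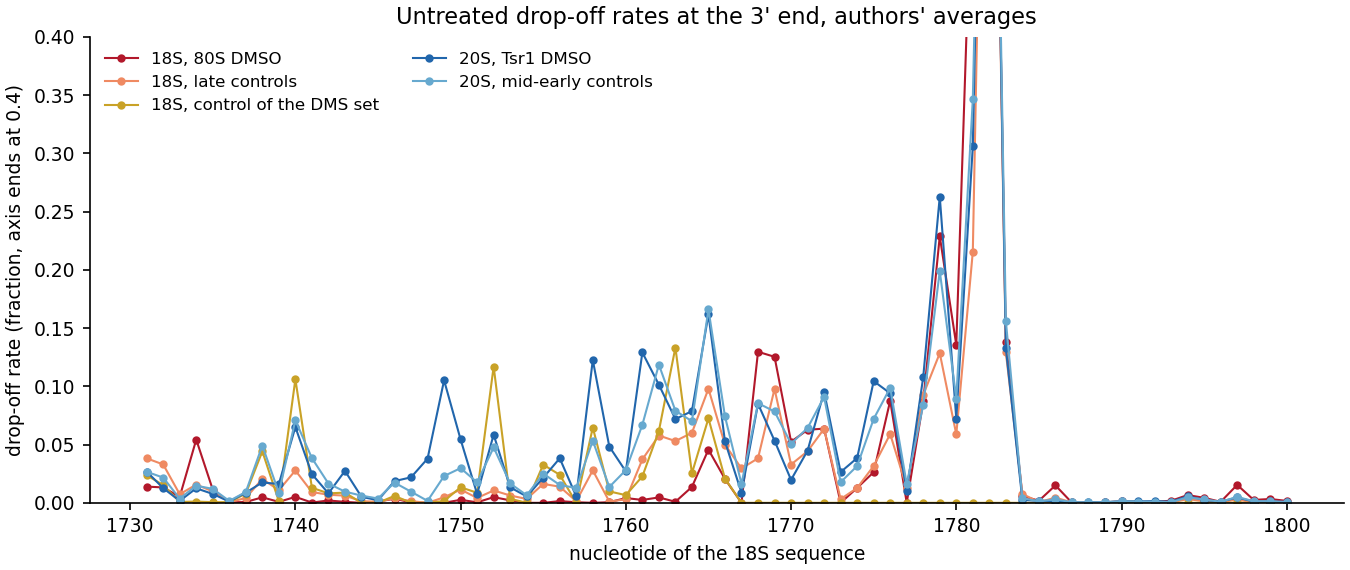
Untreated drop-off rate (fraction, axis ends at 0.4, so A1781 and A1782 run off it) toward the 3′ end in 5 columns. From A1740 to A1766 the 80S DMSO line stays at or below 0.0457, while the Tsr1 DMSO line reaches 0.162, and the control of the DMS set is flat at 0 near the end.

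Of the dimethylated adenines, A1782 was slightly lower in 18S in both pairs but called in neither, while A1781 changed direction between the pairs. At A1782, which is also the nucleotide 3′ of A1781, the rate was close to 1. The rate there was 0.964 in 80S DMSO, against 0.972 in Tsr1 DMSO, and 0.950 in the late controls, against 0.977 in the mid-early controls. At A1782, 80S DMSO and the late controls, both 18S, lay further apart than the columns of the DMSO pair. C1783, 3′ of A1782, had 0.138 in 80S DMSO, against 0.132 in Tsr1 DMSO, and 0.129 in the late controls, against 0.156 in the mid-early controls. By the rule given above, a stop caused by A1782 would fall on C1783. Why the rate was far higher at A1782 than at C1783 was not tested. A1781 had 0.569 in 80S DMSO, against 0.306 in Tsr1 DMSO, but 0.215 in the late controls, against 0.346 in the mid-early controls. Neither pair reached 2-fold there. 80S DMSO and the late controls, both 18S, differed by 0.353 at A1781, the largest difference between these columns. In the control of the DMS set both adenines are listed at 0, like 36 of the last 50 nucleotides.

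The acetylated C1773 is listed at 0 in 80S DMSO, against 0.0264 in Tsr1 DMSO, and had 0.0032 in the late controls, against 0.0177 in the mid-early controls. G1774, 3′ of it, had 0.0128 in 80S DMSO, against 0.0384 in Tsr1 DMSO, and 0.0128 in the late controls, against 0.0316 in the mid-early controls. Neither reached the minimum difference of 0.03. At the other acetylated site, C1280, and at G1281, 3′ of it, the highest rate was 0.0335 in the 4 columns. Rates at G1575, which Bud23 methylates, and at A1576 lay between 0.0172 and 0.0288.

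Of the 18 listed ribose-methylated nucleotides 0 were called, and of the stops 3′ of them 2 were called, each in 1 pair only, where 55 of all 1799 nucleotides were called in 1 pair or both. A579, 3′ of the ribose-methylated U578, was higher in the DMSO pair, with 0.114 in 80S DMSO, against 0.0462 in Tsr1 DMSO. In the 1M7 control pair it had 0.115 in the late controls, against 0.0937 in the mid-early controls. The control of the DMS set, also 18S, gave 0.266 there, above the other 4 columns. U1272, 3′ of the ribose-methylated G1271, was lower in the 1M7 control pair, with 0.0171 in the late controls, against 0.0488 in the mid-early controls, and had 0.0517 in 80S DMSO, against 0.0765 in Tsr1 DMSO.

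Of 13 listed pseudouridines 0 were called, and of the stops 3′ of them 1 was, counts too small to set apart from the 55 of 1799. U633, 3′ of the pseudouridine U632, was lower in the DMSO pair, with 0.0716 in 80S DMSO, against 0.177 in Tsr1 DMSO. In the 1M7 control pair it went the other way, with 0.120 in the late controls, against 0.0892 in the mid-early controls. The sequences around these 3 stops, called stops in capitals, were as follows. The last of them also holds U1282, 2 nucleotides 3′ of the acetylated C1280.
Nucleotides 569 to 589, around A579: cagccgcgguAauuccagcuc
Nucleotides 623 to 643, around U633: agcucguaguUgaacuuuggg
Nucleotides 1262 to 1292, around U1272 and U1282: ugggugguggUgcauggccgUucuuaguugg

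The 7 stops called in the 1M7 control pair only were 3 higher and 4 lower. A1728 had the largest difference, 0.116 in the late controls, against 0.0175 in the mid-early controls, with 0.0454 in 80S DMSO, against 0.0269 in Tsr1 DMSO. A468 had 0.0702 in the late controls, against 0.0295 in the mid-early controls, with 0.0574 in 80S DMSO, against 0.0387 in Tsr1 DMSO. A1722 was the third that was higher (0.0435 in the late controls, against 0.0118 in the mid-early controls). U1282 was lower, with 0.0309 in the late controls, against 0.0775 in the mid-early controls, as was A1221, with 0.0239, against 0.0666. In the DMSO pair these 7 stops had the same sign in 6 cases, the exception being A1196, and none of the 6 reached a difference of 0.03 there.

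The stops called higher in the DMSO pair only numbered 8 of 21 in the 5′ domain (612 nucleotides), 7 in the central domain (527), 1 in the 3′ major domain (491), which was A1189 of helix 31, and 5 in the 3′ minor domain (169). After A1189, the largest was U1769, with 0.125 in 80S DMSO, against 0.0533 in Tsr1 DMSO, and 0.0978 in the late controls, against 0.0784 in the mid-early controls. U667 had 0.0995 in 80S DMSO, against 0.0304 in Tsr1 DMSO, and 0.0714 in the late controls, against 0.0485 in the mid-early controls. A138 had 0.114 in 80S DMSO, against 0.0503 in Tsr1 DMSO, and nearly equal rates in the other pair (0.0612 in the late controls, against 0.0628 in the mid-early controls). A601 had 0.114 in 80S DMSO, against 0.0512 in Tsr1 DMSO, and 0.134 in the late controls, against 0.102 in the mid-early controls.

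Across the 21, the median difference in the 1M7 control pair was 0.0023, and 15 had the same sign there, a sign found at 39.7% of all nucleotides. For the 18 called lower the median in the 1M7 control pair was -0.018, and 15 had the same sign, found at 60.3% of all nucleotides. At 19 of the 21 higher stops 80S DMSO was the highest of the 5 untreated columns, and at 16 Tsr1 DMSO was the lowest, which the choice of stops favours. All 21 stops were at A or U. Of all nucleotides 55.1% are A or U, and of the 593 with a mean rate of at least 0.03 over the 4 columns 83.6% are.

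How far columns of one rRNA differ was read by the same rule. Between 80S DMSO and the late controls, both 18S, 23 stops were called higher (1.28%) and 11 lower (0.611%) in 80S DMSO. Between Tsr1 DMSO and the mid-early controls, both 20S, 14 were called higher (0.778%) and 5 lower (0.278%) in Tsr1 DMSO. The 34 and 19 calls within one rRNA compare with 48 and 16 calls between 18S and 20S in the DMSO pair and the 1M7 control pair. Outside the stretch U1181 to G1200 the counts were 31 and 19 within one rRNA, and 40 and 8 between 18S and 20S. The median absolute difference was 0.0040 and 0.0046 within one rRNA, and 0.0052 in the DMSO pair and 0.0029 in the 1M7 control pair. The 39 and 7 calls in 1 pair only thus stand beside 34 and 19 calls between columns of one rRNA. Set, strains and the unnamed solvent differ together between the pairs and cannot be told apart.

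**Figure D5:**
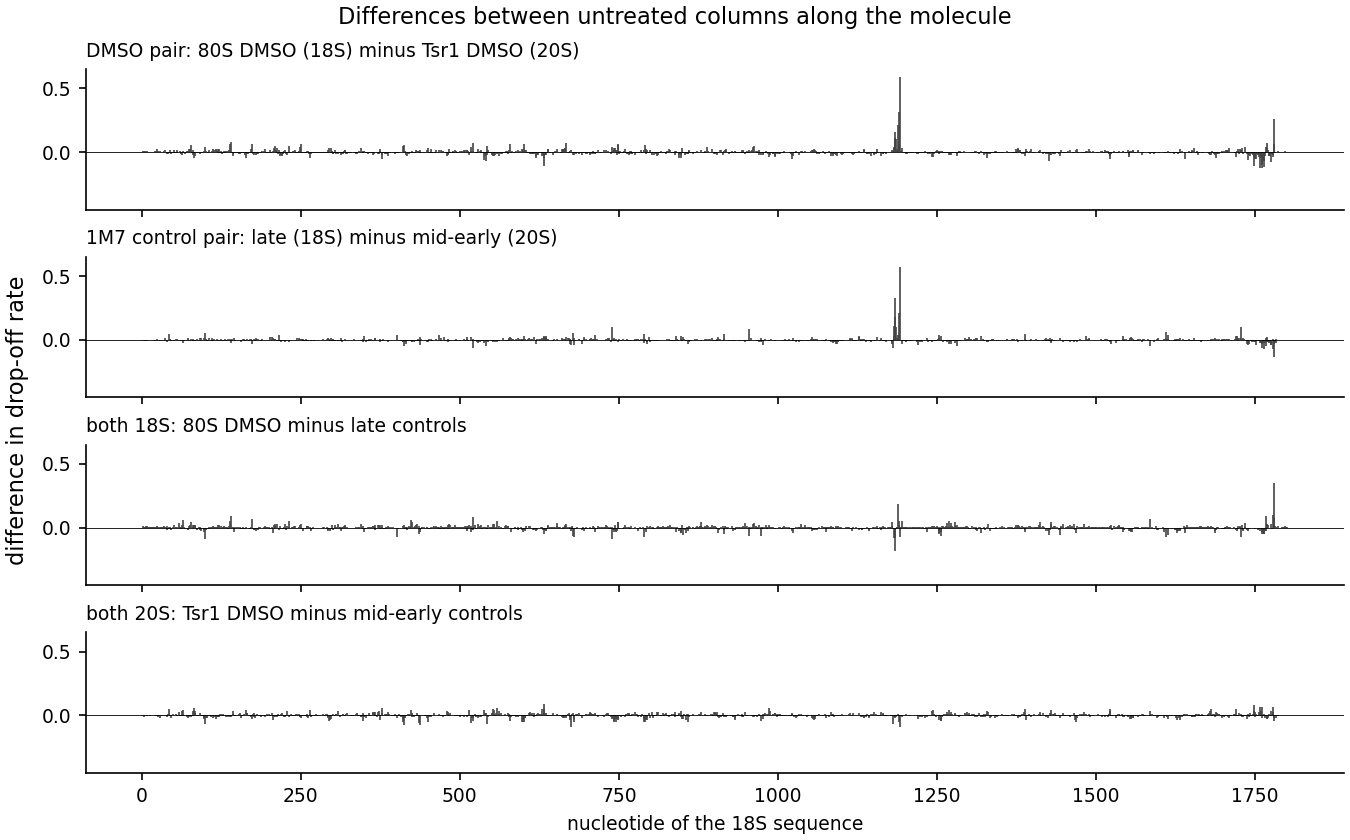
Difference in untreated drop-off rate at nucleotides 2 to 1800, on 1 scale, for the DMSO pair, the 1M7 control pair, the 18S columns of both sets and the 20S columns of both sets, from top to bottom. The spike at 1192 reaches 0.588 and 0.568 in the upper panels, while the 20S panel stays within 0.095 and the largest difference between 80S DMSO and the late controls is 0.353 at A1781.

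A low-level difference that no single call shows lay just 3′ of helix 31. Of the nucleotides 1201 to 1250, 39 of 50 were lower in 18S in both pairs and 1 was higher, the most of 36 windows of 50 nucleotides. The median window had 19.5, the next highest had 31, and over the molecule 38.8% were lower and 20.0% higher in both. The median rate of the window was 0.0089 in 80S DMSO, against 0.0146 in Tsr1 DMSO, and 0.0063 in the late controls, against 0.0140 in the mid-early controls. The control of the DMS set had 0.0067. At 32 of the 50 nucleotides (64.0%) all 3 untreated 18S columns lay below both 20S columns, against 21.0% over the molecule, a difference that the choice of the window from the same columns favours. Only 1 nucleotide of the window was called, A1221. With 1M7 the median was 0.0082 in 80S and 0.0092 to 0.0169 in the 7 columns of 20S RNA, of which 80S-like was the lowest. With NAI it was 0.0086 in 80S, 0.0055 in Rio1 (1 sample) and 0.0144 in Tsr1.

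The window is shown for its sequence.
Nucleotides 1201 to 1250: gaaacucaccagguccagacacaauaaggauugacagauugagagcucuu
Whether the strong stop at C1192 enters the rates of nucleotides 3′ of it was not tested, and how the rate was computed is not given in the sources used here.

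Some of the highest stops were shared by 18S and 20S. A678, A1781 and A1782 were among the 10 highest rates of each of the 4 columns. A678 had 0.227 in 80S DMSO, against 0.249 in Tsr1 DMSO, and 0.289 in the late controls, against 0.233 in the mid-early controls. A1184, U1191 and A740 were among the 10 highest of both 18S columns and of neither 20S column. A740, in expansion segment 6, had 0.162 in 80S DMSO, against 0.118 in Tsr1 DMSO, and 0.254 in the late controls, against 0.149 in the mid-early controls, under 2-fold in both pairs. C1640, 3′ of the ribose-methylated C1639, was high in all 4 columns, with 0.161 in 80S DMSO, against 0.217 in Tsr1 DMSO, and 0.199 in the late controls, against 0.210 in the mid-early controls.

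Some stops lay close to the limits. In the DMSO pair A538 was just inside at 2.00-fold lower (0.0488 in 80S DMSO, against 0.108 in Tsr1 DMSO) and U208 at 2.01-fold higher, while A620 at 1.99-fold lower and A1163 at 1.98-fold lower were just outside. In the 1M7 control pair A468 at 2.03-fold higher and U1272 at 2.17-fold lower were just inside, and A1611 at just under 2.00-fold higher (0.118 in the late controls, against 0.0541 in the mid-early controls) and G1768 at 1.98-fold lower were just outside.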

How the data were processed

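Per the labels' protocols, particles were immunoprecipitated through HTP or TAP tags, RNA was extracted with phenol, and cDNA of purified rRNA was primed with random hexamers. The submitters' processing notes list Novoalign 2.07. The deposited table holds 17 columns, 1 per group, of drop-off rates as a fraction per nucleotide. The authors had averaged them over samples, except for Rio1 with NAI, a group of 1 sample. How the rate was computed, on which reference and at what depth is not given in the sources used here.

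From these rates, differences and folds (pseudocount 0.01) were taken as 18S minus or over 20S in Python 3.11.15 with numpy 2.4.6 and pandas 2.3.3. The call rule was also run on simulated rates whose changes were all set beyond its limits. That run checks the code only and does not measure false calls between these columns. Named nucleotides were those of the stretch U1181 to G1200, those called in both pairs, the 6 largest calls of 1 pair only in each direction, the listed modified sites, the 10 highest rates of a column and those nearest the limits. Any others were chosen with values in view. Scaling alternatives divided each column by its median, or each rate by a running median (local scaling). The modified sites and the domain boundaries are background knowledge; all 37 listed bases match the table. Members and lists were chosen with earlier results of these data known. The table names no genome build; RDN18-1 and RDN18-2, the R64 genes for 18S rRNA, are 1800 nucleotides long.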

Additional observations from a re-analysis of the deposited data

Results flagged for a closer look

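At 7 nucleotides the pairs differed by at least 0.03 in opposite directions, a difference between the pairs that was not tested. The difference, 18S minus 20S, was 0.263 in the DMSO pair and -0.131 in the 1M7 control pair at A1781, 0.0701 and -0.0594 at A520, 0.0546 and -0.0446 at A412, 0.0633 and -0.0308 at G1780, 0.0447 and -0.0473 at G1768, and 0.0310 and -0.0346 at A1196, each time in that order of pairs. U633 went the other way, with -0.106 in the DMSO pair and 0.0304 in the 1M7 control pair. In the untreated control of the DMS set, which belongs to neither pair, A579 had a rate of 0.266, over 2-fold above the highest of the 4 columns of the pairs (0.115 in the late controls). A412, A520 and G1780 were named after their values were seen.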

How the results depend on the processing

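The calls were repeated under 11 other settings, and leaving out replicates could not be run, since each untreated column is an average. No paired analysis was possible because the table holds no values of single untreated samples. The 7 stops higher in both pairs were called in 9 of the 11 settings. Settings that only loosen the rule, or that leave out the ends or rates of 0, could not remove any of the 7. With a minimum difference of 0.05, A1183 and C1190 were lost, and with crossed pairs (80S DMSO against the mid-early controls and the late controls against Tsr1 DMSO) A1183 was lost. Without a fold condition the count was 11, with A601, A100, A740 and A1189 added, and with local scaling it was 12, with A1189, A1728, C1156, U1182 and U1187 added, so 3 and 2 then lay outside the stretch U1181 to G1200. It was 8, with 1 outside, both with a minimum difference of 0.02 (C1156) and with the control of the DMS set in place of the late controls (A579).

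The 2 stops lower in both pairs changed more. With local scaling A1740 was lost and U1741 added, and elsewhere their number was 4 with a minimum difference of 0.02, 0 with 0.05, 7 without a fold condition, 5 at 1.5-fold, 4 with a pseudocount of 0.001, 1 without the first and last 50 nucleotides, 4 with crossed pairs (U1752, U1758, U1761 and U1775, without A1740) and 5 with the control of the DMS set in place of the late controls. In that last setting neither A1740 nor U1752 was among the 5, and the difference of the second pair turned to 0.0352 at A1740 and 0.0694 at U1752.

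Stops of the DMSO pair only, 39 above, were 23 with a minimum difference of 0.05, 71 without a fold condition, 66 at 1.5-fold, 60 with local scaling and 16 with crossed pairs. Stops of the 1M7 control pair only, 7 above, were 2 with a minimum difference of 0.05, 35 without a fold condition, 26 at 1.5-fold, 11 with a pseudocount of 0.001, 55 with crossed pairs and 24 with the control of the DMS set. Calls in opposite directions, 0 above, were 1 each with a minimum difference of 0.02, a pseudocount of 0.001 or columns scaled to a common median, 3 at 1.5-fold, 7 without a fold condition and 3 with the control of the DMS set. Those 3 were U1752, U1769 and U1770, and the control of the DMS set is listed at 0 at U1769 and U1770. For the 28 nucleotides named for their calls, 266 of 300 values kept direction and call, 32 kept direction only and 2 reversed. Many of the 266 could not have changed. A minimum difference of 0.02, no fold condition, 1.5-fold and a pseudocount of 0.001 only loosen the rule. Leaving out the ends or rates of 0 alters no remaining value, and the control of the DMS set leaves the DMSO pair as it was. The causes were not tested, and with unknown depth no counting error can be set on any rate.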
